A study of Mus musculus with 6 samples.

Results

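Histone deacetylases and the corepressors that carry them were examined in heads of mouse embryos at E8.5, on arrays of Jarid1b knockouts and Jarid1b heterozygotes. The set was given as 34 genes: the 11 zinc-dependent deacetylases Hdac1 to Hdac11, the 7 sirtuins, 10 subunits of the NuRD complex, and the scaffolds Sin3a, Sin3b, Rcor1, Rcor2, Rcor3 and Ncor1. A gene counted as measured when the platform annotation paired an array row with its symbol and no other. This held for 33 of the 34 genes, out of 19938 genes measured in all, and Ncor1, the nuclear receptor corepressor, was not analysed here. For genes with more than 1 probe set, the brightest on average over the 6 arrays was taken.

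Deacetylases remove acetyl groups from histone tails and from other proteins, which generally goes with lower transcription. The class I enzymes Hdac1, Hdac2 and Hdac3 act inside large nuclear complexes, class IIa enzymes shuttle between nucleus and cytoplasm, and sirtuins need NAD+ in place of zinc. NuRD joins the deacetylases Hdac1 and Hdac2 to a Chd helicase that moves nucleosomes, with Mta, Mbd and Gatad2 subunits, while Sin3 and CoREST (Rcor) are separate scaffolds for the same deacetylases. CoREST also carries Kdm1a, which removes methyl groups from H3K4me1 and H3K4me2, whereas Jarid1b removes them from H3K4me2 and H3K4me3.

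Both groups were on a C57BL/6 background. The 3 knockout samples came from embryos without Jarid1b, and the 3 heterozygote samples from embryos with a single intact copy, which served as controls in the absence of wild-type arrays. By the study's methods the deletion was made with a Cmv-cre transgene, which acts throughout the body. Each sample pooled 4 heads, so that a value is a mean over embryos and over all cell types in the pool. With 3 arrays a group the precision is limited, and every p refers to the scatter among these 6 pools alone.

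The promoters of the set were mostly rich in CpG, the dinucleotide at which CpG islands form and H3K4me3 usually lies in mammals. RefSeq windows of 300 bases, from 250 before to 50 after the transcription start (GRCm38.p6), were matched by symbol for 28 of the 34 genes. Their CpG count, averaged over the windows of a gene, had a median of 20.8 per window, against 15 over the 15614 measured genes with a window. At least 10 CpGs were present for 26 of the 28 genes (92.9%), against 62.6% of all measured genes, and Hdac8 at 6 and Hdac9 at 1.5 were the exceptions. The letters GGGCGG or, on the other strand, CCGCCC stood in 75.0% of the 40 windows of the set, against 49.2% of the 19177 windows of all measured genes. The windows of Chd5 and Rcor1 are shown because these genes had the highest and the lowest log2 fold change among those whose groups did not overlap. CpGs are in capitals, and both windows, on the + strand, hold similar numbers of them, 32 for Chd5 (chr4:152338401-152338700) and 31 for Rcor1 (chr12:111039117-111039416).
Chd5: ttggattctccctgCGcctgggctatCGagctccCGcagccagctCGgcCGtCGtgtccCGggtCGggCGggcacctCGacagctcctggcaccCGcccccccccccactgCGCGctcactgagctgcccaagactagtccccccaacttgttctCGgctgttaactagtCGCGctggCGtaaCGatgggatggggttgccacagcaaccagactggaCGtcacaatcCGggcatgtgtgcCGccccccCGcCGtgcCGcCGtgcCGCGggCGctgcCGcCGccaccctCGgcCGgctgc
Rcor1: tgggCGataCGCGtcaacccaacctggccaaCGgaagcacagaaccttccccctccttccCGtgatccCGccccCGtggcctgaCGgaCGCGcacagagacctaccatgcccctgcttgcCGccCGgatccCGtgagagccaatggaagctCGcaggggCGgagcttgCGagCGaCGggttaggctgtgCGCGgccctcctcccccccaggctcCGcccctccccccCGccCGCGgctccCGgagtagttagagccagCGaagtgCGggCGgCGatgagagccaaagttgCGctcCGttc

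Jarid1b, listed as Kdm5b, was lower in every knockout pool, with log2 intensities of 7.63, 7.47 and 7.71 in knockouts against 9.17, 9.12 and 9.16 in heterozygotes (limma log2 fold change -1.55, standard error 0.07, adjusted p = 6.29e-04). Whether these probes cover the deleted exon could not be checked here. Pools of the same genotype differed in what else they held. The summed intensity of 5 primitive blood markers was 249 to 1752 in knockouts, with the highest sum in replicate 2, and 181 to 266 in heterozygotes. That of 5 yolk sac endoderm markers was 2930 in knockout replicate 3, 6440 and 6511 in the other knockouts, and 5715 to 6665 in heterozygotes. The 5 surface ectoderm markers summed to 5538 to 6176 in knockouts and 6531 to 6785 in heterozygotes. No share over all probe sets was computed for such sums. All 5 were lower on average in knockouts, as were 50.3% of all probe sets and 70.2% of the brightest of 3 equal parts of them. All 4 head mesenchyme, all 5 endothelium and all 5 yolk sac markers were lower too, while all 5 primitive blood markers were higher. The part of these markers in the results below was not tested. The 6 neural ectoderm markers, which check the head label, summed to 2202 to 2266 in knockouts and 2189 to 2271 in heterozygotes. The 5 heart markers summed to 7833 to 8011 in knockouts and 7945 to 8626 in heterozygotes, so the pools also expressed heart genes. Of these 5, 3 were lower on average in knockouts and 2 higher. Hand2 was lowest, at a log2 fold change of -0.24 (limma adjusted p = 0.358). Head mesenchyme markers summed to 1283 to 1373 in knockouts and 1346 to 1396 in heterozygotes. Endothelium markers summed to 938 to 1201 and 1088 to 1179. The sum of 3 Y-linked genes was 559 to 758 in knockouts, against 764 in heterozygote replicate 2 and 234 and 218 in heterozygote replicates 1 and 3. Only males carry these genes, so by this sum the sex of the embryos was not balanced between the genotypes. The sample labels used here do not give sex. A fit with the Y-linked level as a covariate is given below, and the part of sex in the results was otherwise not tested. For the cell type markers, fewer cells of a type and less RNA per cell cannot be told apart in bulk tissue.

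None of the 33 genes differed between knockouts and heterozygotes at an adjusted p under 0.05, where Jarid1b alone passed among all 21789 probe sets (0.00459%). The smallest adjusted p in the set was 0.391, that of Chd5 (limma, Benjamini-Hochberg over all probe sets). Log2 fold changes, knockout minus heterozygote, ranged from -0.18 for Hdac8 to 0.25 for Chd5 with a median of -0.022, against -0.00072 over all probe sets. The median of the set was -0.0062 without heterozygote replicate 2 and -0.031 without heterozygote replicate 3. They were negative for 20 of the 33 genes (background 50.3%). Of the set, 20 genes lay in the brightest of 3 equal parts of the probe sets, where 70.2% of all probe sets had a negative value, and 11 of these 20 did. The 95% confidence intervals of all 33 genes lay within a change of 1.5-fold in either direction, with bounds from -0.36 to 0.42 on the log2 scale. None lay within 1.1-fold, so changes of that size were not resolved. Standard errors ran from 0.051 to 0.106 on the log2 scale with a median of 0.061, against 0.071 over all probe sets.

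**Figure D1:**
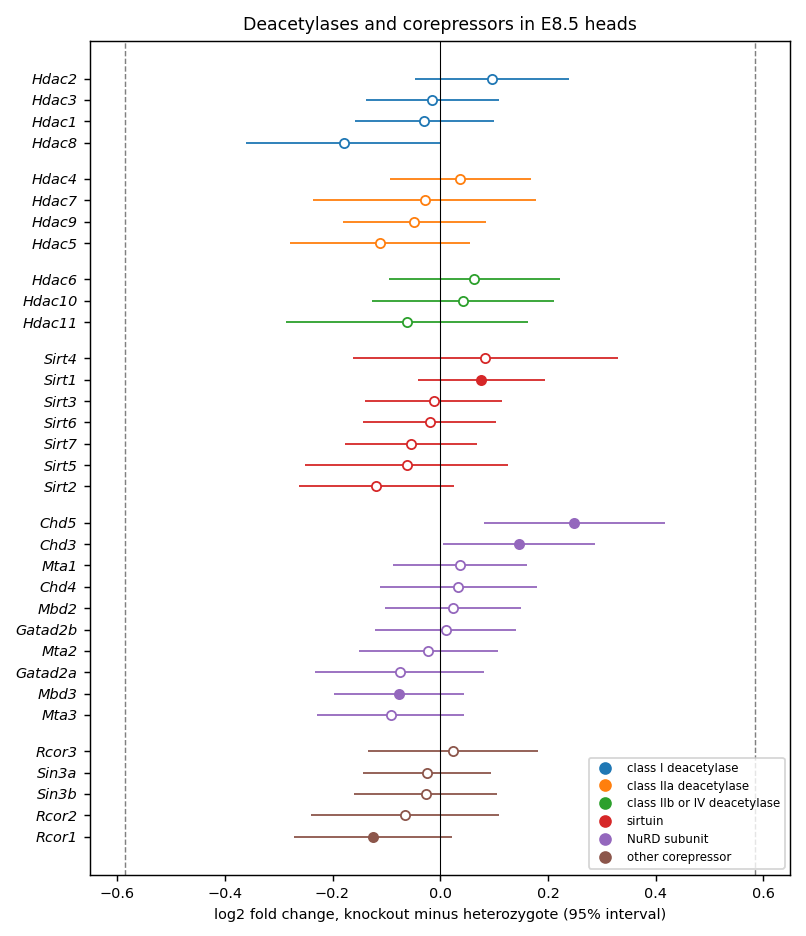
Log2 fold change, knockout minus heterozygote, of the 33 measured genes, grouped by class, with 95% confidence intervals as bars and dashed lines at 1.5-fold. Filled points are genes whose groups did not overlap, and every interval lies between -0.36 and 0.42.

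**Figure D2:**
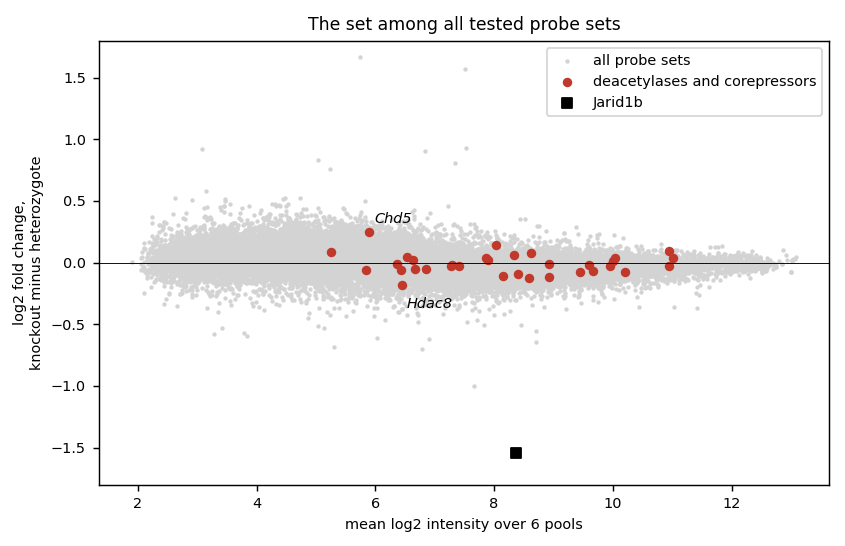
Log2 fold change, knockout minus heterozygote, against the mean log2 intensity over 6 pools for all 21789 probe sets (gray), the 33 genes of the set (red) and Jarid1b (black square). The red points lie between -0.18 for Hdac8 and 0.25 for Chd5, far from Jarid1b at -1.55.

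Unadjusted p-values under 0.05 were found for 2 of the 33 genes in the higher direction (background 5.97%) and for none in the lower direction (background 4.66%), both close to what the background share gives for a set of this size. The 2 genes were Chd5 and Chd3, paralogs of the main NuRD helicase Chd4. None combined such a p with a change of at least 2-fold (background 0.00459%). The groups did not overlap for 5 genes (background 17.1%), namely Chd5, Chd3 and Sirt1, which were higher in every knockout pool (background 8.03%), and Mbd3 and Rcor1, which were lower in every knockout pool (background 9.03%). The share of the set, 5 of 33, is near that background.

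Of the NuRD helicases, Chd5 is best known from neurons, where it can take the place of Chd4. Its log2 intensity was 6.04, 6.09 and 5.95 in the knockout pools and 5.68, 5.89 and 5.75 in the heterozygote pools. These values are near the lower end of the middle of the 3 parts of the probe sets, which runs from 5.33 to 7.69. The median log2 fold change was 0.056 in the dimmest part and -0.00037 in the middle part. All knockout pools of Chd5 lay above all heterozygote pools, by the narrowest margin between knockout replicate 3 and heterozygote replicate 2. The log2 fold change was 0.25 (1.19-fold) with a standard error of 0.07 and an interval from 0.08 to 0.42 (limma, adjusted p = 0.391). Its unadjusted p was under 0.05 in 15 of 16 alternative settings, with adjusted p-values from 0.310 to 0.630 over them. The exception was the fit with the Y-linked level as a covariate, where the value was 0.16 (adjusted p = 0.630 in limma).

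Chd3, the other alternative helicase, had log2 intensities of 8.13, 8.08 and 8.08 in knockouts and 7.98, 8.02 and 7.86 in heterozygotes. The knockout pools lay close together and the heterozygote pools were more spread, with replicate 3 lowest. Its log2 fold change was 0.15 (1.11-fold, standard error 0.06, interval from 0.0052 to 0.29, limma adjusted p = 0.460). Its unadjusted p was under 0.05 in 7 of the 16 alternative settings, and was not with the replicate block, with median centring, where the value was 0.11, or with the Y-linked covariate, where it was 0.096. Chd4, the core helicase of the complex, had log2 intensities of 11.11, 11.03 and 10.94 in knockouts and 11.02, 11.02 and 10.94 in heterozygotes. The 2 groups of Chd4 overlapped, at 0.03 on the log2 scale (interval from -0.11 to 0.18).

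Mbd2 and Mbd3 are methyl-CpG binding domain proteins that occupy NuRD in turn, Mbd2 binding methylated DNA while mammalian Mbd3 does so weakly. Mbd3 had log2 intensities of 9.45, 9.42 and 9.37 in knockouts and 9.50, 9.47 and 9.50 in heterozygotes. Each knockout pool of Mbd3 lay below each heterozygote pool, the gap between the nearest pools being smaller than the spread within either group. This came to a log2 fold change of -0.08 (interval from -0.20 to 0.04, limma adjusted p = 0.617). Mbd2 stood at 0.02 (interval from -0.10 to 0.15), and its groups overlapped.

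The Mta proteins recruit the deacetylases to NuRD and the Gatad2 proteins link Mbd to the helicase. Mta1 had log2 intensities of 10.07, 10.07 and 10.01 in knockouts and 10.02, 10.05 and 9.97 in heterozygotes, and Mta2 had 9.60, 9.61 and 9.55 in knockouts and 9.56, 9.67 and 9.58 in heterozygotes. Both pairs of groups overlapped, at log2 fold changes of 0.04 and -0.02. Gatad2a, at 10.24, 10.21 and 10.09 in knockouts and 10.18, 10.33 and 10.25 in heterozygotes, was at a log2 fold change of -0.07, and Gatad2b was at 0.01. The probe set that stood for Mta3 gave -0.09, and its groups overlapped. A second, dimmer probe set of Mta3, which the annotation ties only to a predicted transcript, gave 0.21 in the opposite direction, with 5.65, 5.61 and 5.57 in knockouts and 5.40, 5.55 and 5.24 in heterozygotes (limma, adjusted p = 0.438). Its groups did not overlap. The direction for Mta3 therefore depended on the probe set.

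**Figure D3:**
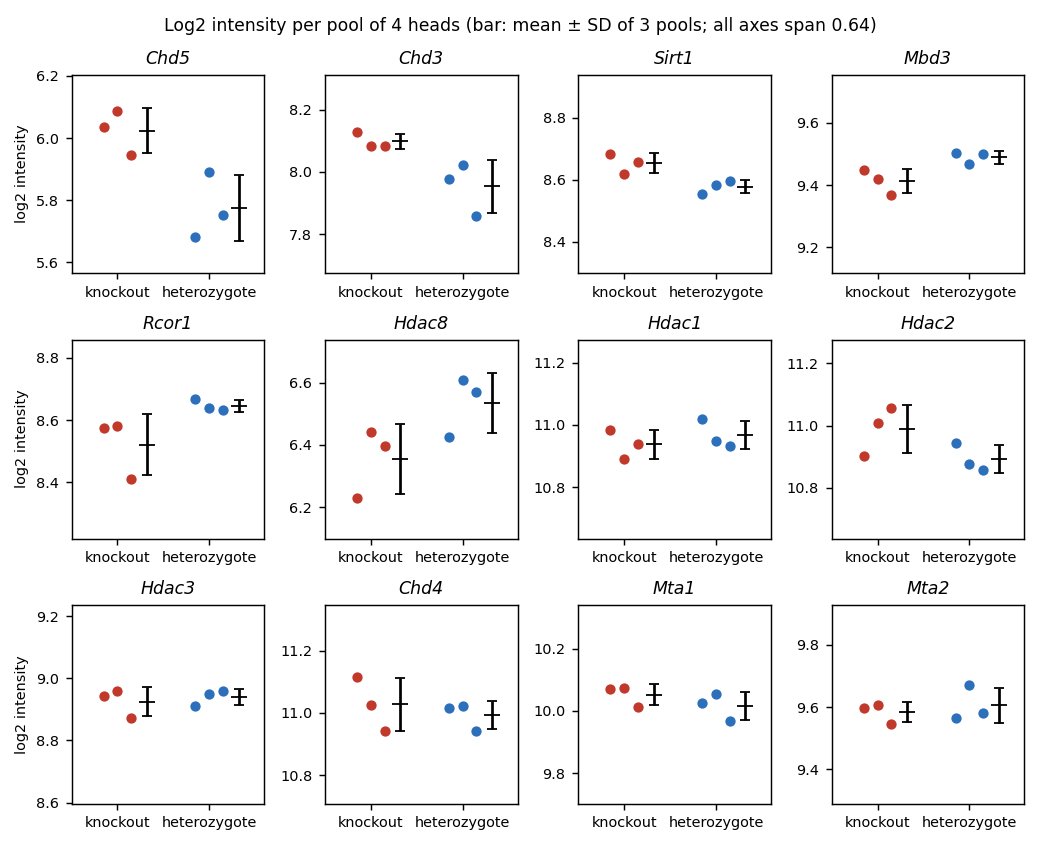
Log2 intensity in each pool for 12 genes of the set, with knockout pools in red, heterozygote pools in blue and a bar for the mean ± SD of 3 pools. The groups do not overlap in the panels of Chd5, Chd3, Sirt1, Mbd3 and Rcor1, and overlap in the other 7.

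Among the class I deacetylases, Hdac1 and Hdac2 are the catalytic subunits shared by NuRD, Sin3 and CoREST. Hdac1 had log2 intensities of 10.99, 10.89 and 10.94 in knockouts and 11.02, 10.95 and 10.93 in heterozygotes, with overlapping groups and a log2 fold change of -0.03 (interval from -0.16 to 0.10). Its other probe set gave -0.06. The annotation ties both Hdac1 probe sets to the same transcripts and RefSeq lists a pseudogene, Hdac1-ps, so signal from the copy could not be separated. Hdac2 had 10.90, 11.01 and 11.06 in knockouts and 10.94, 10.88 and 10.86 in heterozygotes. Knockout replicates 2 and 3 lay above all heterozygote pools and replicate 1 among them, giving a log2 fold change of 0.10 (standard error 0.06, interval from -0.05 to 0.24, limma adjusted p = 0.602), and 0.06 without knockout replicate 3.

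Hdac3, the catalytic subunit of the Ncor complexes, had log2 intensities of 8.94, 8.96 and 8.87 in knockouts and 8.91, 8.95 and 8.96 in heterozygotes. The groups overlapped at a log2 fold change of -0.01. Hdac8, an X-linked enzyme that deacetylates the cohesin subunit Smc3, had 6.23, 6.44 and 6.40 in knockouts and 6.42, 6.61 and 6.57 in heterozygotes, the lowest log2 fold change of the set at -0.18 (1.13-fold lower, standard error 0.08, interval from -0.36 to 0.0022, limma adjusted p = 0.470). Knockout replicate 1 was lowest, and knockout replicate 2 lay just above heterozygote replicate 1, so the groups overlapped. The pool with the highest Hdac8 in each genotype, replicate 2, was also the one with the lowest Xist, the RNA of the inactive X chromosome. Xist intensity was 13.3 in knockout and 18.6 in heterozygote replicate 2. It was 453 and 480 in the other knockouts and 1150 and 1082 in the other heterozygotes. Hdac6, another X-linked gene of the set, was lowest in replicate 2 among knockouts, at 8.47, 8.31 and 8.32. In heterozygotes Hdac6 was at 8.22, 8.35 and 8.34. A link of either gene to Xist was not tested. With the Y-linked level as a covariate the log2 fold change of Hdac8 was -0.24, and without knockout replicate 1 it was -0.12.

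The class IIa enzymes Hdac4, Hdac5, Hdac7 and Hdac9, which have little catalytic activity of their own and repress Mef2 factors, had log2 fold changes of 0.04, -0.11, -0.03 and -0.05, all with overlapping groups. A second probe set of Hdac4 gave -0.05. Hdac5 was the lowest of the class, with 8.20, 8.04 and 8.06 in knockouts and 8.21, 8.31 and 8.11 in heterozygotes. The tubulin deacetylase Hdac6, also X-linked, was at 0.06, the polyamine deacetylase Hdac10 at 0.04 and the class IV enzyme Hdac11 at -0.06. Hdac11 varied most within groups among the zinc-dependent enzymes, with values from 5.64 to 5.91 in knockouts and from 5.76 to 6.03 in heterozygotes.

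Of the sirtuins, Sirt1, a nuclear deacetylase of histones and of p53, was the one whose groups did not overlap. It had log2 intensities of 8.68, 8.62 and 8.66 in knockouts and 8.55, 8.58 and 8.60 in heterozygotes, and a log2 fold change of 0.08 (standard error 0.05, interval from -0.04 to 0.19, limma adjusted p = 0.616). The tubulin deacetylase Sirt2 was the lowest of the family, with 8.88, 8.93 and 8.80 in knockouts and 8.91, 9.02 and 9.02 in heterozygotes, and a log2 fold change of -0.12. The groups of Sirt2 overlapped through knockout replicate 2 and heterozygote replicate 1. The mitochondrial Sirt3, Sirt4 and Sirt5 were at -0.01, 0.08 and -0.06, and the chromatin-bound Sirt6 and the nucleolar Sirt7 at -0.02 and -0.05. Sirt4, the only gene of the set in the dimmest of these 3 parts, had 5.29, 5.31 and 5.30 in knockouts but 5.02, 5.17 and 5.46 in heterozygotes, so that its interval was the widest of the set, from -0.16 to 0.33.

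Rcor1, the main CoREST scaffold, which joins Kdm1a to Hdac1 and Hdac2, had log2 intensities of 8.57, 8.58 and 8.41 in knockouts and 8.67, 8.64 and 8.63 in heterozygotes. All knockout pools lay below the heterozygote pools, and replicate 3 was far below the other knockouts. The log2 fold change was -0.13 (1.09-fold lower, standard error 0.06, interval from -0.27 to 0.022, limma adjusted p = 0.522), and -0.07 without knockout replicate 3. That replicate was also the pool with the low yolk sac sum given above, whose part in the value of Rcor1 was not tested. Rcor2, a form of CoREST found in neural progenitors, was at -0.07 and Rcor3 at 0.02. Sin3a had 9.98, 9.92 and 9.94 in knockouts and 9.97, 10.0045 and 9.95 in heterozygotes, and Sin3a was at -0.025 and Sin3b at -0.027.

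The pools differed among themselves across the set. Knockout replicate 3 held the lowest of the 6 values for 12 of the 33 genes and the highest for 2. Heterozygote replicate 2 held the highest value for 10 genes and the lowest for 2. The median deviation of the set from the mean of each gene was -0.034 in knockout replicate 3 and 0.017 in heterozygote replicate 2. Over all probe sets it was -0.00096 and 0.010 in these pools, and over the brightest of the 3 parts, which holds 20 of the 33 genes, it was -0.029 and 0.026.

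**Figure D4:**
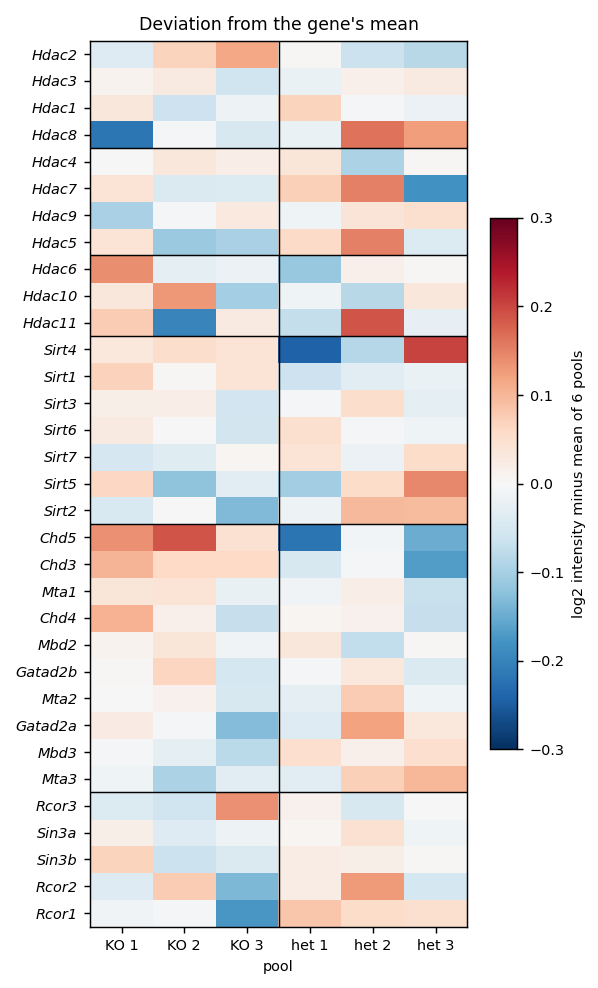
Log2 intensity of each of the 33 genes minus its mean over 6 pools, in knockout pools (left of the vertical line) and heterozygote pools (right), with black lines between classes and a color scale from -0.3 to 0.3. Knockout replicate 3 holds the lowest value for 12 genes and heterozygote replicate 2 the highest for 10.

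Paralogs that can replace each other in a complex were compared within each pool, as the difference of their log2 intensities. Scaling a whole array does not move this difference, but a shift that depends on intensity can. The median log2 fold change was 0.056 in the dimmest, -0.00037 in the middle and -0.035 in the brightest of the 3 parts of the probe sets. Of 9 pairs, 4 had knockout values that did not overlap with the heterozygote values, 2 of them sharing Chd4 (background 16.6% over all pairs of the 19938 genes). The pairs with Chd5, Chd3 and Mbd3 each hold a gene whose own groups did not overlap, so they are not separate from those results. None of the pairs passed a test, since 3 pools against 3 cannot give an exact permutation p below 0.1. The adjusted p over 9 pairs was 0.225 for these 4 (exact permutation test, two-sided). The balance of Chd5 against Chd4 was 0.21 higher in knockouts, with differences of -5.08, -4.94 and -4.996 in knockouts and -5.34, -5.13 and -5.19 in heterozygotes. It was 0.17 higher with quantile normalization and 0.15 higher with cyclic loess. Chd3 against Chd4 was 0.11 higher, and 0.13 and 0.12 higher under these 2 normalizations. Mbd2 against Mbd3 was 0.10 higher, with -1.53, -1.48 and -1.47 in knockouts and -1.56, -1.63 and -1.59 in heterozygotes. Mta1 against Mta2 was 0.059 higher, with 0.474, 0.467 and 0.466 in knockouts and 0.460, 0.384 and 0.386 in heterozygotes.

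The balance of Hdac1 against Hdac2 varied less among the heterozygote pools (SD 0.0028) than among the knockout pools (SD 0.12). For Mta1 against Mta2 the reverse held, with an SD of 0.043 in heterozygotes and 0.0043 in knockouts. Differences in spread were not tested. Hdac1 minus Hdac2 was 0.0831, -0.118 and -0.119 in knockouts and 0.0744, 0.0713 and 0.0769 in heterozygotes. Knockout replicates 2 and 3 lay below the heterozygotes and replicate 1 just above them, so the groups overlapped, at a mean difference of -0.13 (exact permutation test, adjusted p = 0.450), which was -0.19 without knockout replicate 1. The remaining pairs, Mta1 against Mta3, Gatad2a against Gatad2b, Sin3a against Sin3b and Rcor1 against Rcor2, had differences of 0.13, -0.085, 0.0021 and -0.059 with overlapping groups. The value for Mta1 against Mta3 was -0.024 when the probe sets of a gene were averaged and 0.079 without heterozygote replicate 3. Rcor1 against Rcor2 was at 0.021, the opposite sign, with the Y-linked covariate, and at -0.11 without heterozygote replicate 2. Sin3a against Sin3b lay between -0.011 and 0.028 when each pool was left out in turn.

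**Figure D5:**
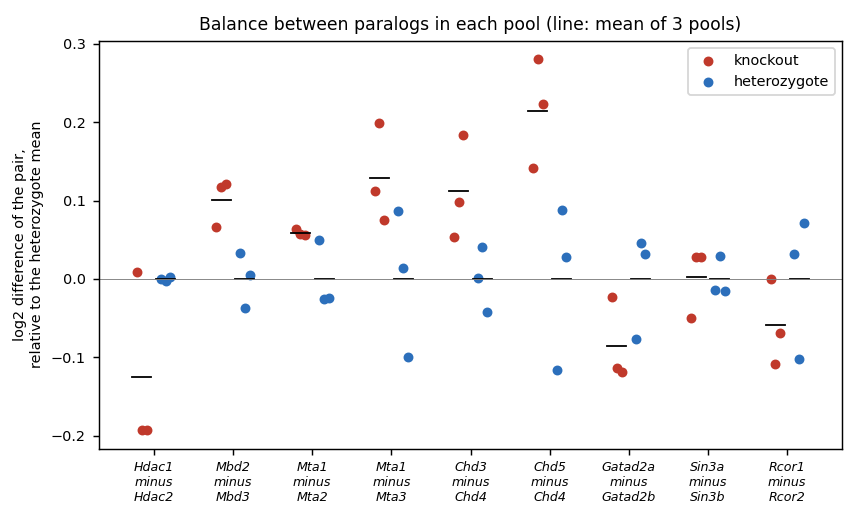
Log2 difference between the paralogs of each of 9 pairs in every pool, set relative to the heterozygote mean of the pair, with knockout pools in red, heterozygote pools in blue and a line at the mean of 3 pools. Red and blue points are separate for Mbd2 and Mbd3, Mta1 and Mta2, Chd3 and Chd4, and Chd5 and Chd4.

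Other subunits of the same complexes and the opposing histone acetyltransferases were taken from a list made by role. Of 28 such subunits 26 were measured, of which none lay above and 2 lay below with an unadjusted p under 0.05 (backgrounds 5.97% and 4.66%). Brms1, a Sin3 subunit, was at a log2 fold change of -0.17 (limma, adjusted p = 0.445), and Phf21a, the CoREST subunit that binds unmethylated H3K4, at -0.14 (adjusted p = 0.466). The highest were Sap18 at 0.13 and Tbl1xr1 at 0.11, subunits of Sin3 and of the Ncor complexes. The histone chaperones Rbbp4 and Rbbp7 of NuRD and Sin3 were at -0.02 and 0.07, and Kdm1a at -0.0038. The median over the 26 was -0.011. The groups did not overlap for 5 of the 26 (background 17.1%). Sap18 and Tbl1xr1 were higher in every knockout pool (background 8.03%), and Brms1, Phf21a and Dnttip1 were lower in every one (background 9.03%).

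All 14 acetyltransferases were measured, with a median log2 fold change of -0.021, and 11 of the 14 were negative (background 50.3%, and 70.2% in the brightest of the 3 parts). The groups did not overlap for 3 of the 14 (background 17.1%). Kat8, which acetylates H4K16, was lower in every knockout pool (background 9.03%), with 9.56, 9.62 and 9.54 in knockouts and 9.66, 9.81 and 9.86 in heterozygotes. It was the only one at an unadjusted p under 0.05 (backgrounds 5.97% higher and 4.66% lower), with a log2 fold change of -0.20 (limma adjusted p = 0.412). Ncoa1 was at -0.13, while Hat1 was at 0.04 and Kat6a at 0.09. The coactivators Ep300 and Crebbp were at -0.0012 and -0.01. Over both lists, the smallest limma adjusted p was thus that of Kat8.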

How the data were processed

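Head RNA at E8.5 was measured on Affymetrix Gene ST arrays for mouse. The deposited values are intensities that the authors obtained by RMA, run through Affymetrix Power Tools (versions and genome build not given in the sources used here), which corrects background, normalizes between arrays and summarizes probes. Values ran from 2.53 to 11741, so they were read as linear and log2 was taken. The table has 35556 rows. The 21789 that carry a single symbol were tested, while 1621 carry several and 12146 none listed.

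Knockouts were compared with heterozygotes in limma 3.58.1 (lmFit, eBayes, no covariate) under R 4.3.3, with Benjamini-Hochberg adjustment over all probe sets. Scripts were tested on simulated data. Values per pool are given for Jarid1b and for these genes of the set: those with an unadjusted p under 0.05 or non-overlapping groups, 12 core members (Ncor1 not analysed) and the 2 highest and 2 lowest. Of the other subunits and acetyltransferases, only Kat8 is given per pool. Hdac5, Hdac6, Hdac11, Sirt2, Sirt4, Rbbp4, Rbbp7, Kdm1a, Ep300, Crebbp and the second probe set of Mta3 were added after their values were seen, as was the share over all gene pairs. Members and lists were chosen with earlier results of these data known. Symbols and promoters come from RefSeq (GRCm38.p6). Alternatives changed the filter, the rows, the probe set rule, the normalization, the variance model, weights, a replicate block, a Y-linked covariate and the pools included. Only these arrays were used here.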

Additional observations from a re-analysis of the deposited data

How the results depend on the processing

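No gene of the set passed at an adjusted p under 0.05 under any of 16 alternatives, where the smallest adjusted p was 0.310, and Jarid1b passed under all of them. Of 527 log2 fold changes of single genes under these alternatives, 493 kept their sign and 34 changed it, none of these above 0.061 in size. Higher genes at an unadjusted p under 0.05 numbered 1 with all rows (background 5.08%), median centring (2.94%) or the replicate block (6.06%), 0 with the Y-linked covariate (4.74%) and 3 with trend and robust (4.84%), against 2 in the fit reported (5.97%). Lower ones numbered 1, always Hdac8, without dim probe sets (7.79%) and with median centring (6.82%), cyclic loess (4.57%), the replicate block (3.95%) or the Y-linked covariate (3.35%), against 0 (4.66%). Median centring left 3 genes with non-overlapping groups (16.3%) and a median of -0.062, while the median of all probe sets was then -0.040. Quantile normalization gave a median of 0.0038 and 2 separate paralog pairs, and cyclic loess a median of -0.0034 and 3 separate pairs. The fit reported had 4 such pairs, and no share over all gene pairs was computed for these normalizations. The medians of all probe sets were then -0.00018 and -0.0044. Subunits and acetyltransferases at such a p numbered 1 with all rows (5.08% higher, 3.5% lower) or the replicate block (6.06% and 3.95%). They numbered 5 with trend and robust (4.84% and 6.38%), against 3 (5.97% and 4.66%). Deviations of same-numbered pools from their group means had correlations of 0.00076, 0.11 and -0.013. No reference value was computed, so these cannot show whether the numbers pair the samples. The cause of these shifts was not tested.

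Signs turned as follows. With probe sets averaged, Hdac4 was at -0.0087 and Mta3 at 0.061. With median centring, Hdac4 was at -0.0024, Chd4 at -0.0053, Mta1 at -0.0026, Mbd2 at -0.015, Gatad2b at -0.029 and Rcor3 at -0.015. With quantile normalization, Hdac3 was at 0.025, Hdac7 at 0.00081, Sirt6 at 0.0078, Mta2 at 0.011 and Sin3a at 0.0038. With cyclic loess, Hdac3 was at 0.021, Mta2 at 0.010 and Sin3a at 0.0051. With the Y-linked covariate, Gatad2b was at -0.026.

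When each pool was left out in turn, 1 to 2 genes were higher and 0 to 1 lower at an unadjusted p under 0.05. Over all probe sets, 4.72% to 6.35% were higher and 2.84% to 4.94% lower at such a p. Subunits and acetyltransferases numbered 0 to 3, against the same shares. Non-overlapping groups were found for 6 to 11 genes of the set (25.6% to 30.9% of all probe sets). Chd5 was among the higher ones each time. The lower one was Hdac8, without knockout replicate 2 or heterozygote replicate 1. Chd3 passed only without heterozygote replicate 2, and Sirt4 at 0.21 without heterozygote replicate 3. Log2 fold changes then ranged from -0.0096 to 0.077 for Chd4, -0.012 to 0.10 for Hdac10, -0.12 to 0.022 for Hdac11, -0.019 to 0.040 for Gatad2b, -0.031 to 0.011 for Hdac3, -0.030 to 0.013 for Sirt3, -0.038 to 0.0034 for Sirt6, -0.039 to 0.060 for Rcor3, -0.13 to 0.040 for Hdac7, -0.017 to 0.21 for Sirt4, -0.0012 to 0.064 for Hdac4, -0.043 to 0.010 for Mta2 and -0.0062 to 0.047 for Mbd2. Another 13 genes kept their sign but moved by over 1.5 times. Besides Hdac2, Hdac8 and Rcor1, these were Hdac1 (-0.053 to -0.0036), Hdac5 (-0.16 to -0.064), Hdac6 (0.0098 to 0.093), Hdac9 (-0.076 to -0.012), Sirt5 (-0.13 to -0.0056), Mta1 (0.013 to 0.056), Gatad2a (-0.11 to -0.029), Sin3a (-0.040 to -0.0090), Sin3b (-0.068 to -0.0015) and Rcor2 (-0.12 to -0.015). The remaining 7, Chd5, Chd3, Sirt1, Sirt2, Sirt7, Mta3 and Mbd3, moved less.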
